A study of Mus musculus with 8 samples.

Results

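The B cell receptor signalling components described here are 38 genes that carry the signal from the antigen receptor into the cell, from the receptor's own signal chains to the kinases, adaptors, calcium channels and phosphatases below it. They were chosen by name, with earlier results of these data known. All 38 were found by Ensembl identifier among the 26589 genes of the deposited table. RNA was taken from B cells of the spleen of IL-10-eGFP Tiger mice, whose Il10 gene is marked with a green fluorescent protein. They had been kept for 48 h in medium with lipopolysaccharide (3 µg/ml), a component of bacterial walls sensed by TLR4, and were sorted into IL-10+ cells (4 libraries) and IL-10- cells (4 libraries). All libraries thus share the strain, the culture and the lipopolysaccharide, no antigen receptor stimulus is named in the labels, and neither age nor number of mice is given in the labels used here. Replicates carry the numbers 1 to 4 in either group, but what a number stands for is left unsaid by the labels, so p-values reflect only the spread among these libraries, which may be technical. The libraries held 27380398 to 29968285 reads, as recovered from the deposited values, so that 1 read in a gene of 1 kb was worth 0.0334 to 0.0365 FPKM.

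The B cell receptor is a membrane immunoglobulin paired with the CD79a and CD79b chains, whose tails carry tyrosines that Src-family kinases phosphorylate. Syk binds there and, through the adaptor BLNK, brings Btk and phospholipase Cγ2 together, which releases calcium and activates protein kinase C and NF-κB, while PI3-kinase acts on membrane lipids. Several phosphatases, ubiquitin ligases and docking proteins limit the signal. In antibody-secreting cells the programme of the mature B cell, of which this receptor is a part, is known to be turned down.

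The tyrosine motif of each signal chain, the immunoreceptor tyrosine-based activation motif, is shown because the pathway starts there. The coding bases, from GENCODE M21 transcripts on GRCm38, run 5′ to 3′ with the codons of both tyrosines in capitals.
Cd79a: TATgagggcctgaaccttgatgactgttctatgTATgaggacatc
Cd79b: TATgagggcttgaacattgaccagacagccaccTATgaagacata
In both genes the 45 bases lie in the last 2 exons, on the plus strand of chromosome 7 for Cd79a (chr7:24901296-24901301 and chr7:24901431-24901469) and on the minus strand of chromosome 11 for Cd79b (chr11:106312007-106312012 and chr11:106311867-106311905). Of these bases 31 are identical between the genes.

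In IL-10+ cells 14 of the 38 members fell, 3 rose and 21 did not pass the test. The test was limma on log2(FPKM + 1) over the 11329 genes with at least 1 FPKM (reads scaled to gene length and to library size) in at least 4 libraries, with a Benjamini-Hochberg adjusted p under 0.05 as the threshold. All 38 members were among the genes tested, with 125 to 30900 reads recovered per member and library. Of all genes tested 19.7% were called, 10.6% higher and 9.18% lower, beside 44.7%, 7.89% and 36.8% of the members. The median log2 change was -0.15 over the members and -0.06 over all genes tested. The falls were mostly moderate: the ratio of the group means had a median of 1.43-fold among the members that fell, and only Lck and Cblb passed 2-fold. In 19 members every IL-10+ library was below every IL-10- library and in 4 every one was above, together 23 of 38, against 13%, 12.2% and 25.2% of all genes tested. In bulk libraries such as these, fewer cells of a type and less RNA per cell cannot be told apart.

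With replicate numbers as a block, since same-numbered libraries varied in common, the model called 21 members lower and 7 higher, against 33.3% and 20.4% of all genes (53.7% in either direction), and left 10 uncalled. With the block and either alternative scaling it called 20 lower and 8 higher. Of all genes, 26.6% were lower and 23.1% higher with the block and median-of-ratios scaling (49.6% in either direction), and 27.5% lower and 22.5% higher with the block and a scaling that omits immunoglobulin and mitochondrial genes (50% in either direction). The 8 of 38 members called higher are thus near the share of all genes. Without the block, median-of-ratios scaling called 12 members lower and 4 higher (798 and 1313 of the 11329 genes). Also without it, the scaling that omits immunoglobulin and mitochondrial genes called 11 members lower and 4 higher (786 and 1292 of the 11329 genes). Within replicates 1 and 2 alone 6 members were called lower and 1 higher (2.82% and 6.94% of all genes, 9.76% in either direction), and within 3 and 4 alone 15 lower and 4 higher (12.1% and 11.3% of all genes, 23.4% in either direction). The sign of the change was the same in both sets for 34 of the 38 members and for 9525 of the 11329 genes tested. Most genes thus kept their sign, members or not.

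**Figure D1:**
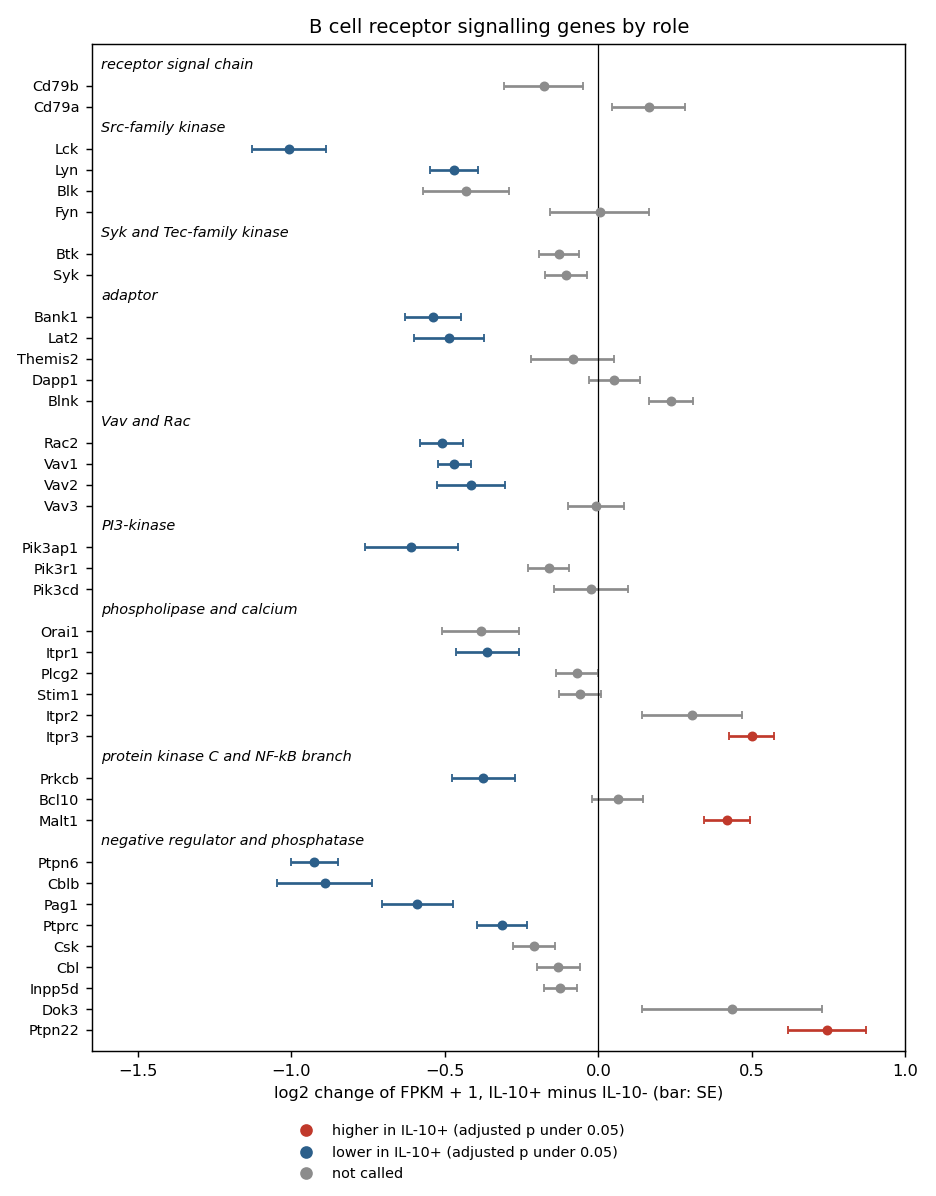
Log2 change of FPKM + 1 (IL-10+ minus IL-10-, 4 libraries each) for the 38 members, in groups by role, with the standard error as a bar. Points left of 0 are lower in IL-10+ cells: 14 called members lie there (blue) and 3 lie to the right (red, Itpr3, Malt1 and Ptpn22), while 21 grey ones did not pass.

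The 8 B cell markers, of which Cd79a, Cd79b and Blk are also members, had summed levels of 1268 to 1604 FPKM in IL-10+ libraries and 1439 to 1959 FPKM in IL-10- libraries. Of these markers 3 fell (Ms4a1, Pax5 and Cd22) and none rose. Of the 10 plasmablast markers 9 rose, among them Prdm1 and Xbp1, and none fell; their sum was 1482 to 1509 FPKM in IL-10+ and 335.7 to 478.5 FPKM in IL-10- libraries. Immunoglobulin genes took 13.2% to 16.8% of all FPKM in IL-10+ and 3.73% to 4.73% in IL-10- libraries. The part of these differences in the members' changes was not tested. Of the 12 T cell markers 10 were under 1 FPKM in every library, Cd3d, Cd3e and Cd3g among them; the list's sum (25.2 to 30.6 FPKM in IL-10+ and 20.1 to 33.3 FPKM in IL-10- libraries) was mostly Cd2, which B cells also express, and the remaining marker, Trac, was detected in every library. The NK cell, neutrophil, erythroid and platelet lists, each taken alone, summed to at most 1.36 FPKM in any library. Of the 8 myeloid markers 6 were under 1 FPKM in every library and Mpeg1, which B cells also express, fell. The other, Cd68, stood at 9.501, 8.93, 6.61 and 6.08 FPKM in IL-10+ libraries and 10.1, 5.83, 8.11 and 6.61 FPKM in IL-10- libraries and did not pass (log2 change 0.02, SE 0.181, adjusted p = 0.948). Il10, on which the cells were sorted, checks the labels: 32.01, 44.5, 35.2 and 35.8 FPKM in IL-10+ libraries and 1.28, 2.87, 3.77 and 4.76 FPKM in IL-10- libraries, with no overlap.

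The signal chains were the members with the highest FPKM, a level per length, of which 6 members had at least 100 FPKM over all libraries, 22 had 10 to 100 and 10 had less, and neither passed the test alone. Cd79a, on chromosome 7 (24897381 to 24902197, GRCm38, ENSMUSG00000003379), stood at 676.0, 601.3, 562.5 and 532.8 FPKM in IL-10+ libraries and 632.1, 554.0, 487.9 and 451.9 FPKM in IL-10- libraries. The IL-10+ library was the higher one in all 4 replicate pairs, though the groups overlapped, with replicate 1 the highest and replicate 4 the lowest in both (log2 change 0.16, SE 0.119, adjusted p = 0.385; adjusted p = 0.012 with the replicate block). Cd79b, on chromosome 11 (106311341 to 106314762, ENSMUSG00000040592), stood at 359.2, 321.9, 299.7 and 279.2 FPKM in IL-10+ libraries and 422.0, 395.9, 317.4 and 300.0 FPKM in IL-10- libraries. Here the IL-10+ library was the lower in all 4 numbers, again with overlap between the groups (log2 change -0.18, SE 0.129, adjusted p = 0.383; adjusted p = 0.0197 with the replicate block).

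Set against each other within a library, the chains separated the groups completely. The ratio of Cd79a to Cd79b, per length, was 1.88, 1.87, 1.88 and 1.91 in IL-10+ libraries and 1.498, 1.399, 1.54 and 1.51 in IL-10- libraries. The IL-10+ ratios spanned less than the gap to the nearest IL-10- ratio, and the means were 1.88 ± 0.0174 in IL-10+ cells, against 1.49 ± 0.0598 in IL-10- cells (SD; n = 4). On the log2 scale the ratio differed by 0.34 (exact two-sided permutation test p = 0.0286, the smallest that 4 against 4 libraries allow). This is 1 of 11 ratios and shares compared in this way, and over the 11 the adjusted p was 0.0524, which 6 of them share. The difference was 0.37 within replicates 1 and 2 and 0.31 within 3 and 4. The adjusted p does not pass 0.05. With that smallest p, none of the 11 could pass by itself, however complete its separation. A ratio also does not say which chain differed.

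**Figure D2:**
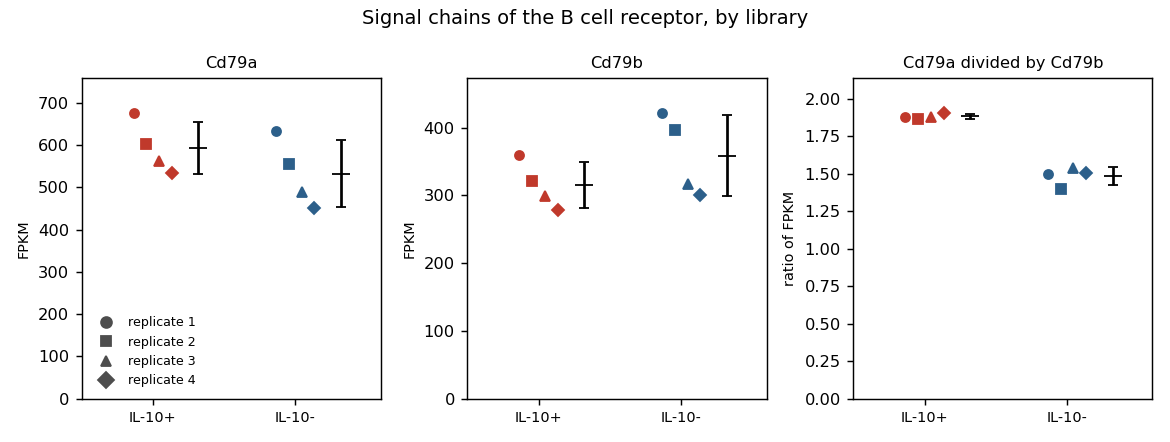
FPKM of Cd79a and of Cd79b and their ratio in each library, IL-10+ left and IL-10- right in each panel, with marker shapes for replicate numbers and bars for mean and SD (n = 4). The groups overlap for each gene, and the ratio is 1.87 to 1.91 in IL-10+ and 1.40 to 1.54 in IL-10- libraries.

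Among the Src-family kinases, which phosphorylate the chains, Lck and Lyn fell. Lck, the family member best known from T cells, stood at 2.66, 1.53, 1.76 and 1.805 FPKM in IL-10+ libraries and 5.28, 4.299, 4.68 and 5.195 FPKM in IL-10- libraries. These levels were low but rested on 125 to 456 reads, the groups did not overlap, and the gene was 2.51-fold lower (log2 change -1.01, SE 0.1203, adjusted p = 0.000523). Of the T cell markers in the same libraries 10 of 12 stayed under 1 FPKM throughout, Cd3d, Cd3e and Cd3g among them, and Trac, a T cell receptor chain, stood at 1.56, 2.14, 1.11 and 0.344 FPKM in IL-10+ libraries and 0.458, 0.413, 1.18 and 0.321 FPKM in IL-10- libraries. Their part in the Lck difference was not tested. Lyn, the main Src-family kinase of B cells, which also starts inhibitory signals, stood at 33.3, 38.1, 34.6 and 31.8 FPKM in IL-10+ libraries and 47.7, 51.3, 49.5 and 43.95 FPKM in IL-10- libraries. All IL-10+ values were below all IL-10- values (log2 change -0.47, SE 0.07797, adjusted p = 0.00327). Blk, a kinase largely restricted to B cells, showed the same order without passing the test, at 33.3, 30.5, 23.1 and 28.1 FPKM in IL-10+ libraries and 48.3, 39.4, 34.3 and 34.5 FPKM in IL-10- libraries (log2 change -0.43, SE 0.1404, adjusted p = 0.0648; adjusted p = 0.00139 with the replicate block). Fyn was level with no constant sign between replicate numbers, at 15.9 ± 3.36 FPKM in IL-10+ cells, against 15.8 ± 2.66 FPKM in IL-10- cells (SD; n = 4; log2 change 0.005, SE 0.161, adjusted p = 0.989). As shares of the 4 kinases' summed FPKM, Fyn made up 19.5% ± 2.17 in IL-10+ cells, against 14.6% ± 1.32 in IL-10- cells (SD; n = 4), and Lck 2.39% ± 0.5103 in IL-10+ cells, against 4.54% ± 0.636 in IL-10- cells (SD; n = 4); neither share overlapped between the groups (exact two-sided permutation test p = 0.0286 each, adjusted p = 0.0524). The summed level was 81.1 ± 8.58 FPKM in IL-10+ cells, against 107.9 ± 10.04 FPKM in IL-10- cells (SD; n = 4). The shares of Lyn and Blk overlapped between the groups (exact p = 0.457 and 0.771, adjusted p = 0.718 and 0.8286).

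The kinases that follow, Syk and Btk, did not pass the test. Syk, which docks on the phosphorylated chains, was at 98.2 ± 2.25 FPKM in IL-10+ cells, against 106.0 ± 8.13 FPKM in IL-10- cells (SD; n = 4; log2 change -0.11, SE 0.0684, adjusted p = 0.325). Btk, the Tec-family kinase that activates phospholipase Cγ2, was at 43.9 ± 2.77 FPKM in IL-10+ cells, against 48.1 ± 1.74 FPKM in IL-10- cells (SD; n = 4; log2 change -0.13, SE 0.06597, adjusted p = 0.218; adjusted p = 0.0116 with the replicate block). The IL-10+ library was the lower in all 4 replicate numbers for both genes, with overlap between the groups.

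Adaptors split. Bank1, a B cell scaffold that binds Lyn and the calcium channels of the endoplasmic reticulum, stood at 29.4, 29.2, 31.4 and 25.8 FPKM in IL-10+ libraries and 46.3, 42.8, 44.3 and 36.8 FPKM in IL-10- libraries. The groups did not overlap, and the call held when any single library was left out (log2 change -0.54, SE 0.0905, adjusted p = 0.00354). Lat2, a membrane adaptor also called NTAL, stood at 21.4, 18.5, 16.6 and 16.5 FPKM in IL-10+ libraries and 31, 25.6, 24.4 and 22.9 FPKM in IL-10- libraries, without overlap (log2 change -0.49, SE 0.114, adjusted p = 0.0176), and it was no longer called without IL-10+ replicate 3 or IL-10+ replicate 4 (adjusted p as high as 0.0557). Of the exon bases of Lat2 36.3% lie under exons of Rfc2 on the other strand; Rfc2, a replication factor subunit, also fell, and no source used here states the strand setting of the counting, so reads of this stretch cannot be assigned. Blnk, the adaptor that joins Syk to Btk and phospholipase Cγ2, went the other way without passing, at 68.8 ± 2.996 FPKM in IL-10+ cells, against 58.3 ± 4.29 FPKM in IL-10- cells (SD; n = 4). Its groups did not overlap (log2 change 0.24, SE 0.0722, adjusted p = 0.0507), and it was called with the block (adjusted p = 0.0028) and with either other scaling alone (adjusted p = 0.0331 and 0.0314). Dapp1, an adaptor that binds the lipid products of PI3-kinase, was at 8.88 ± 0.484 FPKM in IL-10+ cells, against 8.55 ± 0.924 FPKM in IL-10- cells (SD; n = 4), and Themis2, a B cell signalling adaptor, at 34.5 ± 6.53 FPKM in IL-10+ cells, against 36.2 ± 3.13 FPKM in IL-10- cells (SD; n = 4), both with overlap (adjusted p = 0.705 and 0.714).

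Of the genes that link the receptor to the cytoskeleton, Vav1, Vav2 and Rac2 fell together. Vav1, an exchange factor that loads Rac with GTP, stood at 39.8, 39.1, 38.4 and 39.6 FPKM in IL-10+ libraries and 53.4, 53.7, 56.7 and 55.02 FPKM in IL-10- libraries. Its replicates were among the tightest of the members and the groups were far apart (log2 change -0.47, SE 0.0534, adjusted p = 0.000395). Rac2, the Rac GTPase of blood cells, stood at 175.4, 158.9, 159.4 and 152.0 FPKM in IL-10+ libraries and 248.9, 228.9, 228.3 and 215.8 FPKM in IL-10- libraries (log2 change -0.51, SE 0.0711, adjusted p = 0.00128). Its change on the log2 scale was between -0.52 and -0.50 in every replicate number. Vav2 stood at 24.3, 21.7, 18.6 and 20.9 FPKM in IL-10+ libraries and 33.96, 29.5, 26.96 and 25.2 FPKM in IL-10- libraries and did not overlap (log2 change -0.42, SE 0.1105, adjusted p = 0.0303), but with 1 library removed at a time its call ended 5 times of 8 (adjusted p as high as 0.0837) and held without IL-10+ replicate 1, IL-10- replicate 3 or IL-10- replicate 4. Vav3 was barely expressed, at 1.09 ± 0.131 FPKM in IL-10+ cells, against 1.104 ± 0.151 FPKM in IL-10- cells (SD; n = 4; log2 change -0.01, SE 0.0913, adjusted p = 0.9596). Its change turned sign with either alternative scaling. The summed Vav level was 61.7 ± 2.89 FPKM in IL-10+ cells, against 84.7 ± 2.81 FPKM in IL-10- cells (SD; n = 4). The Vav1 and Vav2 shares of that sum overlapped between the groups (exact p = 0.60 and 0.8286). The Vav3 share was 1.77% ± 0.267 in IL-10+ cells, against 1.31% ± 0.205 in IL-10- cells (SD; n = 4) (exact p = 0.0286, adjusted p = 0.0524).

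**Figure D3:**
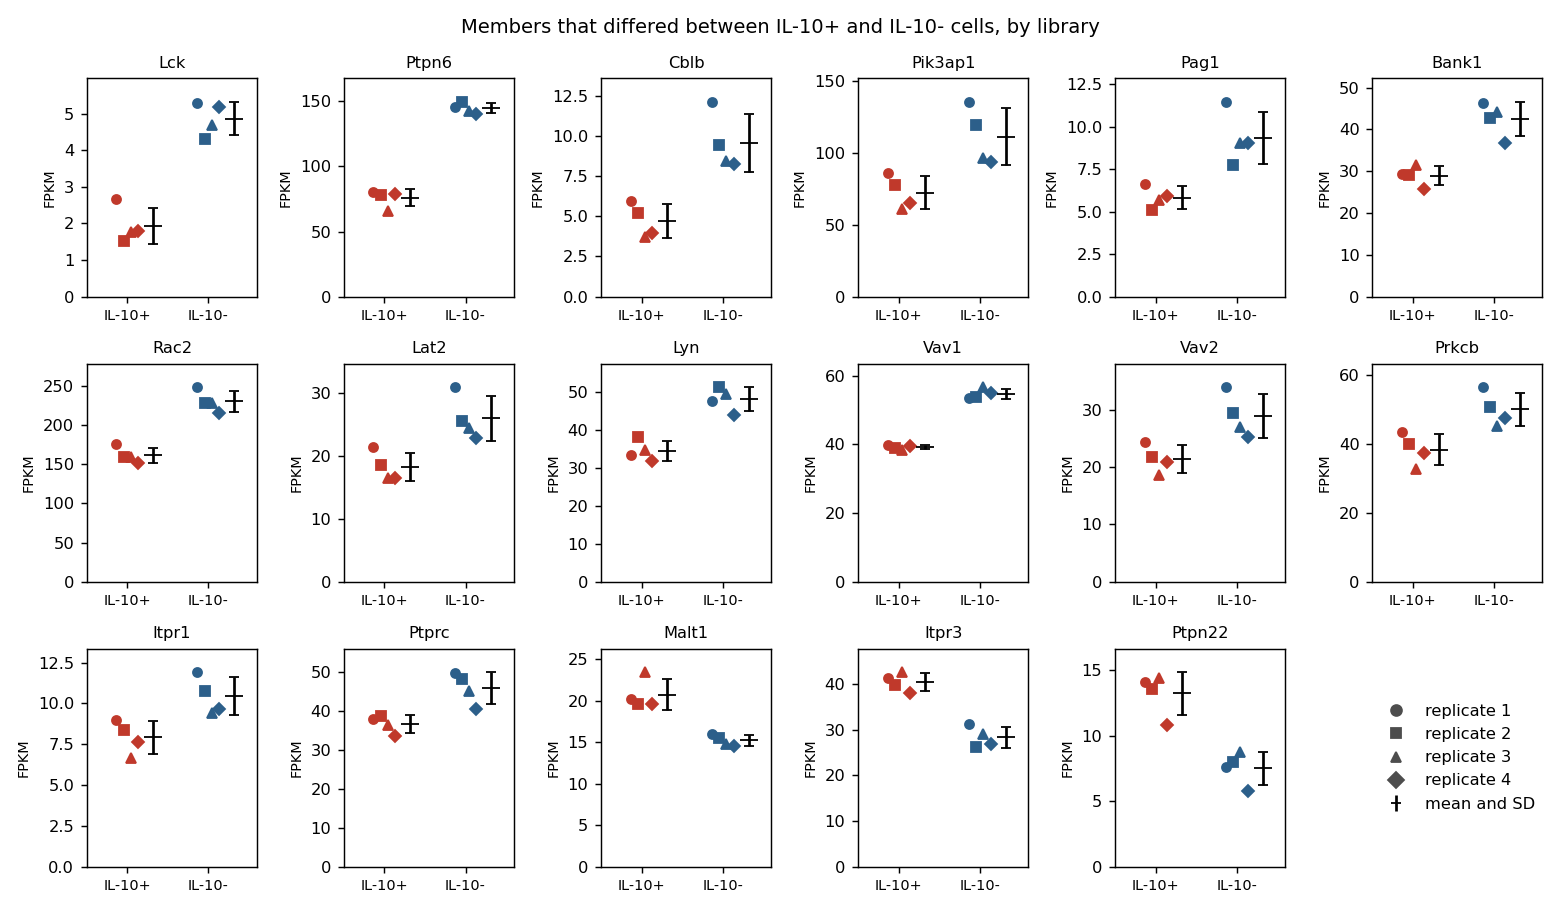
FPKM in each library of the 17 members that passed the test, ordered from the largest fall (Lck) to the largest rise (Ptpn22), IL-10+ left and IL-10- right, each axis from 0, with mean and SD (n = 4). In every panel the 4 red IL-10+ points lie on one side of the 4 blue IL-10- points.

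Of the PI3-kinase members only the adaptor fell. Pik3ap1, known as BCAP, which recruits PI3-kinase to the receptor, stood at 85.9, 77.8, 60.5 and 64.7 FPKM in IL-10+ libraries and 135.3, 119.0, 96.2 and 93.6 FPKM in IL-10- libraries. The groups did not overlap and it was 1.54-fold lower (log2 change -0.61, SE 0.152, adjusted p = 0.0228), though the call ended without IL-10+ replicate 3, IL-10+ replicate 4 or IL-10- replicate 2 (adjusted p as high as 0.0656). Pik3cd, the p110δ catalytic subunit that dominates in B cells, was at 57.8 ± 6.74 FPKM in IL-10+ cells, against 58.98 ± 9.04 FPKM in IL-10- cells (SD; n = 4; log2 change -0.02, SE 0.1199, adjusted p = 0.914). Its change turned sign with either alternative scaling. Pik3r1, the p85α regulatory subunit, was at 6.11 ± 0.342 FPKM in IL-10+ cells, against 6.96 ± 0.493 FPKM in IL-10- cells (SD; n = 4), with every IL-10+ library below every IL-10- library (log2 change -0.16, SE 0.0672, adjusted p = 0.132; adjusted p = 0.0102 with the replicate block).

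Pik3cg and Pik3r5, genes of the other PI3-kinase class, rose. Pik3cg, the p110γ catalytic subunit that G protein-coupled receptors activate, is no member but has the largest change on the list of other pathway genes. It stood at 15.3, 14.6, 11.1 and 11.5 FPKM in IL-10+ libraries and 1.92, 2.35, 2.98 and 2.899 FPKM in IL-10- libraries, 5.18-fold higher (log2 change 1.997, SE 0.136, adjusted p = 3.65e-05). Pik3r5, which encodes its p101 regulatory subunit, stood at 4.61, 5.09, 7.37 and 6.22 FPKM in IL-10+ libraries and 1.87, 1.64, 2.85 and 2.06 FPKM in IL-10- libraries (log2 change 1.13, SE 0.154, adjusted p = 0.00115). Of the summed FPKM of the 4 catalytic genes Pik3ca, Pik3cb, Pik3cd and Pik3cg, Pik3cg made up 16.3% ± 1.26 in IL-10+ cells, against 3.67% ± 1.03 in IL-10- cells, and Pik3cd made up 71.7% ± 0.987 in IL-10+ cells, against 83.0% ± 2.104 in IL-10- cells (SD; n = 4). These shares were computed after the values were seen and carry no test. Pik3cb, too low to be tested, was also higher without overlap. It was at 0.629 ± 0.0869 FPKM in IL-10+ cells, against 0.291 ± 0.109 FPKM in IL-10- cells (SD, n = 4). Pik3ca did not pass (log2 change -0.014, adjusted p = 0.887).

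**Figure D4:**
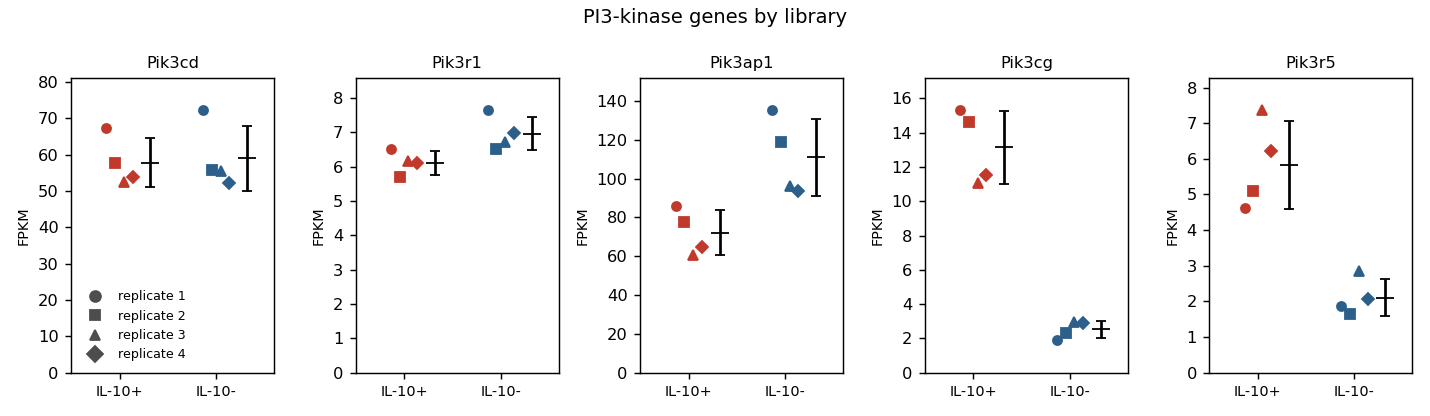
FPKM of 5 PI3-kinase genes in each library, IL-10+ left and IL-10- right, each axis from 0, with mean and SD (n = 4). Pik3cd overlaps between the groups, Pik3ap1 is lower in all IL-10+ libraries (60.5 to 85.9 FPKM in IL-10+ and 93.6 to 135.3 FPKM in IL-10- libraries), and Pik3cg (11.1 to 15.3 FPKM in IL-10+ and 1.92 to 2.98 FPKM in IL-10- libraries) and Pik3r5 are higher in all of them.

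In the calcium branch Itpr3 rose and Itpr1 fell, which encode receptors for inositol trisphosphate, the messenger that phospholipase Cγ2 makes. Itpr3 stood at 41.3, 39.8, 42.6 and 37.9 FPKM in IL-10+ libraries and 31.2, 26.2, 29.1 and 26.9 FPKM in IL-10- libraries. It was 1.43-fold higher without overlap (log2 change 0.50, SE 0.07396, adjusted p = 0.00182). Itpr1 stood at 9.0, 8.38, 6.67 and 7.62 FPKM in IL-10+ libraries and 11.9, 10.8, 9.43 and 9.65 FPKM in IL-10- libraries, 1.32-fold lower, also without overlap (log2 change -0.36, SE 0.103, adjusted p = 0.03998). The call of Itpr1 held without IL-10+ replicate 1 or IL-10- replicate 3, ended without any of the other 6 libraries (adjusted p as high as 0.0972) and ended with either alternative scaling (adjusted p = 0.0550 and 0.0696). Itpr2 was higher in all 4 replicate numbers with overlap, at 4.26 ± 0.654 FPKM in IL-10+ cells, against 3.31 ± 0.995 FPKM in IL-10- cells (SD; n = 4; log2 change 0.30, SE 0.163, adjusted p = 0.236; adjusted p = 0.01203 with the replicate block). Within the family, Itpr1 made up 15.1% ± 1.72 in IL-10+ cells, against 24.8% ± 1.56 in IL-10- cells (SD; n = 4), and Itpr3 76.9% ± 2.37 in IL-10+ cells, against 67.4% ± 2.82 in IL-10- cells (SD; n = 4). Neither share overlapped (exact two-sided permutation test p = 0.0286 each, adjusted p = 0.0524), and the Itpr1 share differed by nearly the same amount within replicates 1 and 2 (-9.73 percentage points) as within 3 and 4 (-9.80). The Itpr2 share was at 8.07% ± 0.909 in IL-10+ cells, against 7.78% ± 1.67 in IL-10- cells (SD; n = 4) (exact p = 0.743). The family's summed level was 52.6 ± 2.60 FPKM in IL-10+ cells, against 42.1 ± 3.89 FPKM in IL-10- cells (SD; n = 4).

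**Figure D5:**
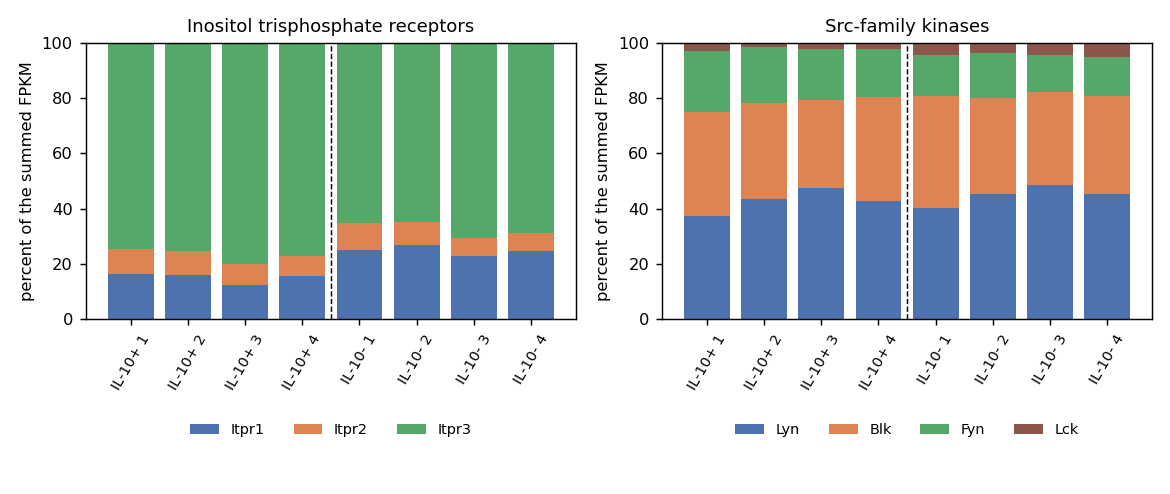
Share of each gene in its family's summed FPKM in each library, for the inositol trisphosphate receptors (left) and the Src-family kinases (right), with the 4 IL-10+ libraries left of the dashed line and the 4 IL-10- libraries right of it. Itpr3 takes 74.7% to 80.0% in the IL-10+ bars, against 64.8% to 70.6% in the IL-10- bars, and Fyn takes 17.3% to 22.2% in IL-10+ and 13.1% to 16.2% in IL-10- libraries.

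The other calcium genes did not pass. Plcg2, the phospholipase itself, was at 97.04 ± 4.32 FPKM in IL-10+ cells, against 102.0 ± 6.597 FPKM in IL-10- cells (SD; n = 4; log2 change -0.07, SE 0.0686, adjusted p = 0.522). Stim1, the sensor of the calcium store, was at 5.63 ± 0.231 FPKM in IL-10+ cells, against 5.93 ± 0.487 FPKM in IL-10- cells (SD; n = 4; log2 change -0.06, SE 0.0677, adjusted p = 0.579). Orai1, the channel it opens in the plasma membrane, was at 5.41 ± 0.9105 FPKM in IL-10+ cells, against 7.34 ± 1.07 FPKM in IL-10- cells (SD; n = 4), with the IL-10+ library the lower one of each of the 4 pairs (log2 change -0.38, SE 0.126, adjusted p = 0.0656; adjusted p = 0.00361 with the replicate block).

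In the branch to NF-κB, Prkcb fell and Malt1 rose. Prkcb, the protein kinase C isoform of this pathway, stood at 43.3, 39.8, 32.8 and 37.3 FPKM in IL-10+ libraries and 56.4, 50.6, 45.1 and 47.5 FPKM in IL-10- libraries. The groups were separate (log2 change -0.38, SE 0.103, adjusted p = 0.0343), and the call held without IL-10+ replicate 1 or IL-10- replicate 3 and ended without any of the other 6 libraries (adjusted p as high as 0.0859). Malt1, a paracaspase that cleaves regulators of NF-κB, stood at 20.2, 19.6, 23.5 and 19.6 FPKM in IL-10+ libraries and 16.1, 15.5, 14.8 and 14.5 FPKM in IL-10- libraries. It was 1.36-fold higher (log2 change 0.42, SE 0.0738, adjusted p = 0.00445), and its call held without any single library. Bcl10, an adaptor that binds it, was at 17.9 ± 1.29 FPKM in IL-10+ cells, against 17.1 ± 1.56 FPKM in IL-10- cells (SD; n = 4; log2 change 0.06, SE 0.0829, adjusted p = 0.6501).

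Negative regulators gave the largest changes next to Lck. Ptpn6, the phosphatase SHP-1 that inhibitory receptors recruit, stood at 80.6, 78.4, 66.1 and 78.5 FPKM in IL-10+ libraries and 145.5, 149.7, 143.0 and 140.5 FPKM in IL-10- libraries. The highest IL-10+ value was far below the lowest IL-10- value, the gene was 1.91-fold lower (log2 change -0.93, SE 0.0758, adjusted p = 7.08e-05), and it passed with replicates 1 and 2 alone (adjusted p = 0.00638) as well as with 3 and 4 alone (adjusted p = 0.00494). Cblb, a ubiquitin ligase that restrains antigen receptors, stood at 5.96, 5.203, 3.73 and 3.94 FPKM in IL-10+ libraries and 12.1, 9.47, 8.45 and 8.23 FPKM in IL-10- libraries, 2.03-fold lower (log2 change -0.89, SE 0.156, adjusted p = 0.00425). Its relative Cbl was at 18.5 ± 0.335 FPKM in IL-10+ cells, against 20.4 ± 1.78 FPKM in IL-10- cells (SD; n = 4), with no overlap but a small difference (log2 change -0.13, SE 0.0699, adjusted p = 0.237).

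Pag1, the membrane anchor of the kinase Csk, stood at 6.65, 5.08, 5.67 and 5.94 FPKM in IL-10+ libraries and 11.5, 7.76, 9.07 and 9.04 FPKM in IL-10- libraries (log2 change -0.59, SE 0.116, adjusted p = 0.00776). Csk itself, which phosphorylates the inhibitory tail of Src-family kinases, was at 105.6 ± 4.13 FPKM in IL-10+ cells, against 122.4 ± 8.53 FPKM in IL-10- cells (SD; n = 4), without overlap but not called (log2 change -0.21, SE 0.0685, adjusted p = 0.06597; adjusted p = 0.002105 with the replicate block). Ptprc, the phosphatase CD45 that removes this inhibitory mark, is grouped here as a phosphatase and not as a negative regulator. It stood at 38.1, 38.8, 36.5 and 33.6 FPKM in IL-10+ libraries and 49.9, 48.3, 45.2 and 40.5 FPKM in IL-10- libraries (log2 change -0.31, SE 0.0824, adjusted p = 0.0289). The IL-10+ libraries were all lower, but the call of Ptprc held only without IL-10+ replicate 1 or IL-10- replicate 4, ended without any of the other 6 libraries (adjusted p as high as 0.0779) and ended with median-of-ratios scaling (adjusted p = 0.0540). Inpp5d, the lipid phosphatase SHIP1, was at 24.7 ± 0.264 FPKM in IL-10+ cells, against 26.98 ± 1.096 FPKM in IL-10- cells (SD; n = 4; log2 change -0.12, SE 0.0548, adjusted p = 0.156; adjusted p = 0.02401 with the replicate block).

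Among these regulators a single gene rose and passed. Ptpn22, a phosphatase that acts on Src-family kinases and works with Csk, stood at 14.1, 13.6, 14.4 and 10.8 FPKM in IL-10+ libraries and 7.59, 7.95, 8.73 and 5.79 FPKM in IL-10- libraries. It was 1.76-fold higher, the largest rise among the members, and the log2 difference was between 0.66 and 0.81 in each of the 4 replicate numbers (log2 change 0.74, SE 0.128, adjusted p = 0.00393). Dok3, a docking protein that recruits inhibitors of calcium signalling, stood at 41.5, 27.8, 21.02 and 21.2 FPKM in IL-10+ libraries and 34, 18.5, 15.6 and 14.8 FPKM in IL-10- libraries. Replicate 1 was the highest in both groups, and the IL-10+ library was higher in all 4 numbers. The test without the block did not pass and that with it did (log2 change 0.43, SE 0.294, adjusted p = 0.3503; adjusted p = 0.00113 with the replicate block).

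The other genes of the pathway, a list of 74 written with earlier results of these data known, held 64 that were tested, of which 19 fell and 3 rose. That is 29.7% and 4.69%, beside 9.18% and 10.6% of all genes tested; the median log2 change was -0.10. The 3 that rose were Pik3cg, Pik3r5 and Shc1, an adaptor to the RAS pathway that stood at 22.8 ± 1.57 FPKM in IL-10+ cells, against 18.4 ± 0.983 FPKM in IL-10- cells (SD; n = 4; log2 change 0.30, SE 0.0695, adjusted p = 0.0179). The call of Shc1 ended without IL-10+ replicate 2, IL-10- replicate 2 or IL-10- replicate 3. Of the 8 called genes with the largest changes, Pik3cg and Pik3r5 rose and the other 6 fell, which are inhibitory receptors, a kinase and an adaptor. Cd22, a sialic acid-binding co-receptor that recruits SHP-1, was at 81.6 ± 17.3 FPKM in IL-10+ cells, against 163.8 ± 30.4 FPKM in IL-10- cells (SD; n = 4; log2 change -1.003, SE 0.174, adjusted p = 0.00413). Cd72, another of the inhibitory receptors, was at 18.98 ± 7.45 FPKM in IL-10+ cells, against 44.8 ± 15.98 FPKM in IL-10- cells (SD; n = 4; log2 change -1.21, SE 0.308, adjusted p = 0.0253). Its call ended without IL-10+ replicate 3 or 4 or IL-10- replicate 1 or 2. Fgr, a Src-family kinase best known from myeloid cells, was at 0.741 ± 0.205 FPKM in IL-10+ cells, against 2.62 ± 0.761 FPKM in IL-10- cells (SD; n = 4; log2 change -1.04, SE 0.152, adjusted p = 0.00168). Sh3bp2, an adaptor that binds Syk and Vav, was 1.91-fold lower, Pirb, an inhibitory receptor for MHC class I, 2.399-fold lower, and Siglecg, the relative of Cd22, 1.74-fold lower (adjusted p = 0.00340, 0.0242 and 0.0354). The call of Pirb ended without IL-10+ replicate 2, 3 or 4, and that of Siglecg without any of these or IL-10- replicate 1 or 2.

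Promoter sequence was read for the members with an entry in the RefSeq promoter table (GRCm38.p6), which were 30 of the 38, in 40 windows of 300 bases from 250 before to 50 after a transcription start. Blk, Cd79b, Itpr1, Lat2, Lyn, Malt1, Pag1 and Rac2 had none. The ETS motif AGGAAGT was found on either strand in 32.5% of the members' windows (11 members), against 9.35% of all 32851 windows in the table. That table was not limited to the genes tested here. The Ptprc windows overlap and share an ETS match, which was counted in each. The octamer ATGCAAAT was found in 10%, in Blnk, Itpr3, Orai1 and Prkcb, against 1.74% of all windows. The letters AGNGAAAG, which match the core of the Blimp-1 site, were found in 2.5% (Ptpn22) against 8.63%, the palindromic EBF1 motif in 2.5% (Vav3) against 0.904%, and a kappa B motif in none against 0.155%. No 2 of these motifs overlapped in the windows printed, and a match is a description of letters and not of binding.

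Windows of a signal chain and of members that fell or rose are shown so that the matches can be seen; each is cut 20 bases after the start, and capitals mark the motif matches. The Cd79a window is chr7:24897247-24897516 on the plus strand, Vav1 is chr17:57278850-57279119 on the plus strand, Ptpn6 is chr6:124738690-124738959 on the minus strand, Itpr3 is chr17:27057054-27057323 on the plus strand and Ptpn22 is chr3:103859545-103859814 on the plus strand.
Cd79a: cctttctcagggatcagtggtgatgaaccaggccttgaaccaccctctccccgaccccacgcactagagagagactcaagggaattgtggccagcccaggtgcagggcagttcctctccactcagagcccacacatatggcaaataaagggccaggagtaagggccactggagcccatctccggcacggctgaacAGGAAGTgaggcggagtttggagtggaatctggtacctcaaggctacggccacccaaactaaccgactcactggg
Vav1: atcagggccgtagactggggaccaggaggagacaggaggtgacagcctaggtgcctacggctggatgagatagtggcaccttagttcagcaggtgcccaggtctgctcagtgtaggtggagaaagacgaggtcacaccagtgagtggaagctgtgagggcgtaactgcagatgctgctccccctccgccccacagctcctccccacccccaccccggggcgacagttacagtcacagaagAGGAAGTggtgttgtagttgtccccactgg
Ptpn6: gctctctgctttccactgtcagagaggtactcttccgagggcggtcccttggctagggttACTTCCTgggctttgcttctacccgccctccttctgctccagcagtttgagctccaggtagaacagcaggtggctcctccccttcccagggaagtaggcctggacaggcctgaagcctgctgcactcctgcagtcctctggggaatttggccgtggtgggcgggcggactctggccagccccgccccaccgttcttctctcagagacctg
Itpr3: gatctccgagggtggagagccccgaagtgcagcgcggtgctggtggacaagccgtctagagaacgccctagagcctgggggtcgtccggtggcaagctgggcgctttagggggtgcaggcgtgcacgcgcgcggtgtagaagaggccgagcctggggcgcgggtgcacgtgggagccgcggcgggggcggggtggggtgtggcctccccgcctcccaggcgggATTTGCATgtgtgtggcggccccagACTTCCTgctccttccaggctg
Ptpn22: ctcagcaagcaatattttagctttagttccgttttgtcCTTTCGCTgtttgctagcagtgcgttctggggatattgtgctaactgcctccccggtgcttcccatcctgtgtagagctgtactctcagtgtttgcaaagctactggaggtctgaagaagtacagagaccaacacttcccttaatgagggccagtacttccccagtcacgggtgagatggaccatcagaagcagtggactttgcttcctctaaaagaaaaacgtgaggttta
Cd79a, Vav1 and Ptpn6 hold AGGAAGT or its reverse complement, beginning 55, 10 and 190 bases before the start. Itpr3 holds the reverse complement of the octamer, ATTTGCAT, 27 bases before the start and that of AGGAAGT across it. Ptpn22 holds the reverse complement of the Blimp-1 letters 212 bases before the start. The ETS letters thus stood in members that fell (Lck, Ptpn6, Ptprc, Vav1 and Vav2), in one that rose (Itpr3) and in those that did not pass (Blnk, Cd79a, Dapp1, Inpp5d and Vav3).

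Few members shared exon bases with other genes. Besides Lat2, Ptpn6 shared 6.96%, Lyn 6.09% and Itpr3 2.58% of its exon bases with a gene on the other strand, and the partners of these 3 were at or under 0.388 FPKM in every library. The remaining overlaps, of Itpr1, Lck and Orai1, were under 1% each with any gene.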

How the data were processed

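RNA was sequenced from sorted IL-10+ and IL-10- B cells, 4 libraries each. The values deposited by the authors are FPKM per gene, 1 column per library; HISAT2 2.1.0, HTSeq 0.6.0 and mm10 are named in the submitters' processing notes, and for the annotation release, the strand setting and shared reads nothing is stated in the sources used here. A treatment label reads untreated, while the labels' protocol states lipopolysaccharide, which was followed. Here log2(FPKM + 1) of the 11329 genes with at least 1 FPKM in 4 libraries was fitted with limma 3.58.1 (R 4.3.3, intensity trend) without a block, with Benjamini-Hochberg adjustment over all of them, and a call at adjusted p under 0.05. A fold change on this scale understates that of low genes. Ratios and shares within families were tested by exact permutation (SciPy 1.17.1). The fit was also run on simulated data whose libraries varied independently. That run cannot show how the fit behaves where same-numbered libraries vary in common.

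Library totals were recovered from FPKM and GENCODE M21 exon length. Between 95.1% and 95.4% of values under 1000 reads were then whole within 0.05, and intervals of counting were not used. Same-numbered libraries deviated together (correlations 0.71, 0.58, 0.62 and 0.70, against at most 0.43 with another number). Only the fits with the replicate block took the numbers to pair the samples. That pairing rests on these values, since the labels do not state it. The main fit and the exact permutation tests treated the libraries as unpaired. Every member is accounted for; values per library are given for Cd79a, Cd79b and the members called, and some further members were added after their values were seen (Blk and Dok3). Of the other pathway genes, the 8 called with the largest change and all that rose are named. Rfc2, Pik3ca and Pik3cb were added. The members and lists were chosen with earlier results of these data known. Alternatives were another pseudocount, filter, scaling, a replicate block, subsets of replicates and leaving out each library.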

Additional observations from a re-analysis of the deposited data

Results flagged for a closer look

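In 3 of 76 groups of 4 libraries tested, over the 38 members, 1 library stood far from the other 3, where chance flags about 1 in 20. Malt1 was at 23.5 FPKM in IL-10+ replicate 3, the highest of its group, with a gap of 0.848 of the group's range. Ptpn6 was at 66.1 FPKM in IL-10+ replicate 3, the lowest of its group, with a gap of 0.847 of the range. Inpp5d was at 25.0 FPKM in IL-10+ replicate 2, the highest of its group, with a gap of 0.837 of a narrow range. The calls of Malt1 and Ptpn6 held without that library.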

How the results depend on the processing

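The replicate block, which pairs same-numbered libraries, called 7 members higher, and 8 with either scaling added; among the other pathway genes it called 12 higher (13 with either scaling) and 29 lower, and among all genes 2312 higher (2615 with median-of-ratios scaling, 2550 with a scaling that omits immunoglobulin and mitochondrial genes) and 3771 lower (3009 and 3116). It ended no member's call and added 11. With replicates 1 and 2 only, 1 member was called higher and 6 lower, 6 other pathway genes lower, and 786 genes higher and 320 lower. With replicates 3 and 4 only, 5 of the 64 tested other pathway genes were called higher and 21 lower. Among all genes 1279 were then called higher and 1368 lower (11.3% and 12.1%). Leaving out each library in turn gave 8 to 15 members lower, 10 to 21 other pathway genes lower and 607 to 954 genes lower. The sign turned for members near 0: Fyn (-0.0388 with replicates 3 and 4; -0.101 to 0.0937 without 1 library), Dapp1 (-0.0476 with replicates 1 and 2; -0.0113 to 0.102), Themis2 (0.064 with replicates 1 and 2; -0.168 to 0.0342), Vav3 (0.0126 with median-of-ratios scaling and 0.0091 with the other scaling, each with and without the block, 0.0249 with replicates 1 and 2; -0.0581 to 0.0270) and Pik3cd (0.0162 and 0.0095 with these scalings, each with and without the block; -0.0994 to 0.0756). Without a filter the calls of Vav2, Pik3ap1, Itpr1 and Prkcb ended, and scaling without immunoglobulin and mitochondrial genes ended those of Vav2, Prkcb and Itpr1. The causes were not tested.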
